A study of Mus musculus with 17 samples.

Results

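Prdm1 encodes Blimp-1, a zinc-finger repressor of transcription that is required for antibody-secreting plasma cells. The ATAC-seq table held 33 regions of accessible chromatin whose nearest transcript or nearest transcription start was Prdm1, of 66177 regions in all. Membership followed that annotation and used no accessibility value, although the locus was picked with earlier results of these data known. The annotation by nearest transcript gave 33 regions and that by nearest start gave 32, since the start of another gene, Mir1929, lay closer to the region farthest downstream. Their accessibility was compared between 3 sorted populations, which are naive B cells (nB), B cells of the germinal center (GCB) and plasma cells of the bone marrow (BMPC). It was also compared between mice with and without Dnmt3a and Dnmt3b, the enzymes that place new DNA methylation.

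All mice carried loxP-flanked alleles of both methyltransferases and the labels give the strain as B6;129S4-Dnmt3atm3.1Enl Dnmt3btm5.1Enl/Mmnc, whereas the study's methods name another Dnmt3a allele, tm3.2Enl. Dnmt3-sufficient mice (C, Dnmt3afl/flDnmt3bfl/fl) lacked Cre, and Dnmt3-deficient mice (KO) carried the same floxed alleles and expressed Cre in the B cell lineage. The presence of Cre and the loss of the methyltransferases could not be told apart. Ages were not given in the labels. nB (B220+ Fas- GL7-) came from lymph nodes of male mice, with 3 C and 2 KO libraries. GCB (B220+ Fas+ GL7+ PE+) were sorted from lymph nodes 30 days after immunization with phycoerythrin (PE) in adjuvant, with 2 C and 4 KO libraries, each from 2 pooled mice of 1 sex. BMPC (CD138+) were sorted from bone marrow of female mice at day 30, with 3 C and 2 KO libraries. A further KO BMPC library was removed by the authors and was not analysed here. The study describes nB as coming from unimmunized mice, and the labels give no day for them. Sex, tissue and immunization could not be told apart from cell type between nB and BMPC. Between nB and GCB, immunization and cell type could not be told apart either. Between GCB and BMPC, tissue and the sorting for PE binding could not be told apart from cell type. C GCB replicate 1 and KO GCB replicates 1, 2 and 3 were female, and C GCB replicate 2 and KO GCB replicate 4 were male. Sex was therefore uneven between C and KO GCB, and differed in part between GCB and the other cell types.

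Blimp-1 is known to repress the genes that keep a cell a B cell, among them Pax5, Bcl6 and Ciita, and in this way locks in the plasma cell program. In naive and germinal center B cells Prdm1 itself is held down by repressors such as BCL6, BACH2 and PAX5, and it is induced by IRF4 and by signals through AP-1 and STAT factors. Regulatory elements of the gene are known both in its introns and at a distance from it.

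Prdm1 lies on the minus strand of chromosome 10 (mm9). The table annotated a coding transcript from the start site at base 44178493 to base 44156981, and a long processed transcript that starts 69.8 kb upstream, at base 44248307. Regions are named here by their distance in kb from the start of the coding transcript, with plus for downstream, and the region over that start is named P. The 33 regions covered 331 kb, from base 44119880 to base 44451060. Of these, 7 lay downstream of the gene, 9 overlapped a transcript and 17 lay upstream of the long transcript. P covered promoter, 5' untranslated, exon and intron sequence, and the -71 region lay at the promoter of the long transcript. Their widths ran from 173 to 1354 bp (median 440, and 510 over all regions), and 32 of the 33 had a mean of at least 1 RPPM, the unit of the deposited values (reads in a region scaled to a fixed total of reads in peaks). RPPM is not scaled to the width of a region, so levels are compared between samples and not between regions.

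The sequence of the central 300 bases is shown for the promoter region, for the regions with the largest rise (+58) and the largest fall (-178) from C nB to C BMPC, and for the region with the smallest p between KO and C BMPC (+49). All are written 5' to 3' on the strand of the gene, with the letters of the motif cores searched in capitals. P spans chr10:44178355-44178654, +58 spans chr10:44120407-44120706, -178 spans chr10:44355932-44356231 and +49 spans chr10:44129630-44129929 (NCBIM37, the Ensembl name of mm9).
P: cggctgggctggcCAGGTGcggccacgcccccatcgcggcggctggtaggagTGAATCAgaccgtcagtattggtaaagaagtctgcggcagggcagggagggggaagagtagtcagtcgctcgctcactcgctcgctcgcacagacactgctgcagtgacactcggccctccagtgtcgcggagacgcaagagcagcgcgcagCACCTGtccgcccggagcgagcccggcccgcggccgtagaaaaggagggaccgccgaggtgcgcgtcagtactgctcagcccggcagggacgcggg
+58: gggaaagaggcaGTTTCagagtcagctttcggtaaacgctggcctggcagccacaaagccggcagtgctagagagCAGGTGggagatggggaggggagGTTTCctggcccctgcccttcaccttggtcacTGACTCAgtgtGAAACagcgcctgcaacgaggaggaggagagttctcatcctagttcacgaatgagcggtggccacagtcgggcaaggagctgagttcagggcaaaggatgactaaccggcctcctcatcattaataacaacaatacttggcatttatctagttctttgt
-178: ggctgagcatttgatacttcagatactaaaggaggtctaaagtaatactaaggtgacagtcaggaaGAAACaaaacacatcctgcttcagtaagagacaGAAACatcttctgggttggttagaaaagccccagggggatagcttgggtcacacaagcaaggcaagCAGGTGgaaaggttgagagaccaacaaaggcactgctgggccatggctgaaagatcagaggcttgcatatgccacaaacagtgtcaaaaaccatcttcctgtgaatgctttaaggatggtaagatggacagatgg
+49: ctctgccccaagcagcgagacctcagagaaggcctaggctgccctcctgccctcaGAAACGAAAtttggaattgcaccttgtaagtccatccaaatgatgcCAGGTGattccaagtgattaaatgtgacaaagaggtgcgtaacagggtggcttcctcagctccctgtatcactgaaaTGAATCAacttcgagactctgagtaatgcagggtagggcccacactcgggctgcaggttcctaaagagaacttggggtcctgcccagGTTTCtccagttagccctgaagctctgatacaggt

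The cores were searched on both strands, and may overlap each other. TGANTCA, the pattern searched for AP-1, takes any base at its center. It was found at 1 position each in +58 (as TGACTCA) and in P and +49 (both as TGAATCA), and not in the -178 window. The short IRF core GAAAC was found 3 times in +58, and +49 held the ETS-IRF composite core GAANNGAAA, which there overlapped GAAAC. Each of these 4 windows held the E-box core CACCTG, which E2A binds, written CAGGTG where it lies on the other strand. Over the 33 windows, TGANTCA was in 9 (27.3%), against 9.18% of the windows of 65889 regions on assembled chromosomes. GAAAC was in 26 (78.8%, against 55.4%) and the ETS core GGAAGT was in 16 (48.5%, against 30.3%). CACCTG was in 12 (36.4%, against 26.8%) and the other E-box core, CAGCTG, was in 3 (9.09%, against 20.6%). The composite core GAANNGAAA was in 7 members (21.2%, against 13.5%), and the interferon response core GAAANNGAA was in 8 (24.2%, against 13.1%). TTCNNNGAA, the spacing used by BCL6 and STAT factors, was in 6 (18.2%, against 8.99%), and GTGAAAG, the core bound by Blimp-1 itself, was in 5 (15.2%, against 6.23%). The octamer ATGCAAAT was in 2 (6.06%, against 3.96%), and no member window matched the NF-kB core GGANTTTCC (1.58% of all windows). These matches describe letters in the windows and not binding. DNA methylation in mammals falls mainly on CpG, and the member windows held a median of 4 CpG, against 5 over all windows. P held 33 CpG, the -71 window held 25, and the -178 window was the only member window with 0.

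Reads in regions numbered 4104875 to 6079018 per library in nB, 907959 to 2280954 in GCB and 5357687 to 8232313 in BMPC. A floor of 3 reads therefore corresponded to 0.364 to 3.30 RPPM, with the highest floors in KO GCB, and low values there were the least precise. Mitochondrial regions took 7.43% to 10.1% of reads in GCB and 2.56% to 4.59% elsewhere. Defining markers were read at the region nearest their start. All 5 nB markers with a region were highest in nB, and 6 of 7 BMPC markers were highest in BMPC, whereas 3 of 6 GCB markers were highest in GCB. Of the other GCB markers, Bcl6 was highest in nB, and Fas and S1pr2 were highest in BMPC. Among 4 T cell markers with a region (Cd3e, Cd3d, Cd4 and Lat), the summed level was 82.7 to 97.6 RPPM in nB, 32.9 to 46.0 RPPM in GCB and 51.6 to 74.6 RPPM in BMPC (T cells can also express Prdm1). Cd3d, at a region 4219 bp from its start, carried most of the nB sum, with a mean of 62.3 RPPM in C nB, 13.7 RPPM in C GCB and 41.1 RPPM in C BMPC. Cd4 went the other way, with 0.867, 11.3 and 15.9 RPPM, and Cd3e was at 3.02, 0.660 and 0.538 RPPM. Per the study's methods, the cytometry panels excluded cells stained for CD90.2, CD11b, CD11c or Ly6-G, which are carried by T and myeloid cells among others. The part of T cells in these values was not tested. The 5 myeloid markers with a region summed to 19.7 to 24.0 RPPM in nB, 13.6 to 29.7 RPPM in GCB and 20.4 to 25.4 RPPM in BMPC. The 3 erythroid markers with a region summed to 45.9 to 63.3 RPPM, 35.2 to 45.6 RPPM and 66.2 to 77.9 RPPM in the same order, and the part of either cell type was not tested. No marker list was at 0 in any library. No batches were given in the labels.

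In C cells, 6 of the 7 regions downstream of the gene, 3 within it (+18, +14 and +7) and -251 and -272 at the far upstream end were called higher in BMPC than in nB, where 18.0% of all regions were called higher. In a stretch of 9 regions from -138 to -218 kb, 8 were called lower in GCB than in nB, against 8.47% of all regions, and 7 were called lower in BMPC than in nB, against 20.1%. The stretch was drawn with these values known, and over the whole locus the 7 lower calls of 33 are near the share of all regions. Summed over the 33 regions, the C nB libraries had 320, 331 and 340 RPPM, the C GCB libraries 142 and 184 RPPM, and the C BMPC libraries 335, 355 and 360.5 RPPM. The sums of C nB and C BMPC overlapped, while the shares of single stretches differed. The 12 regions of the gene body and downstream flank, without P, held 17.4% of the summed RPPM of the locus in C nB (16.6 to 17.8%, n = 3) and 44.6% in C BMPC (42.2 to 47.8%, n = 3). In C BMPC, +58 alone had a mean of 44.0 RPPM, where these 12 regions summed to a mean of 156 RPPM. The 9 regions from -138 to -218 kb held 39.2% in C nB (38.6 to 39.9%) and 10.5% in C BMPC (7.73 to 13.0%). These stretches were drawn after the values had been seen, and their shares carry no test. Fewer open cells and less accessibility per cell cannot be told apart in libraries of sorted cells.

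**Figure D1:**
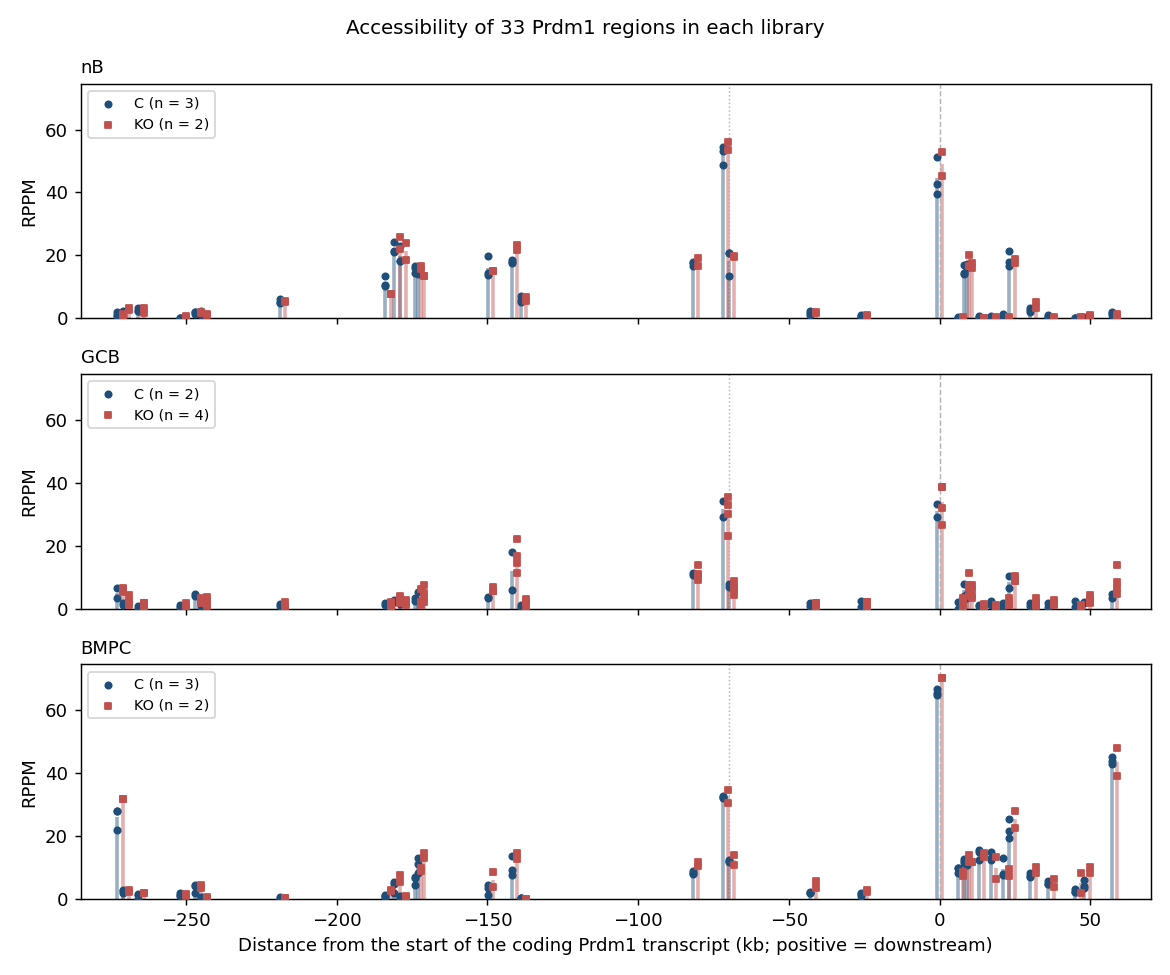
RPPM (y axis) of the 33 Prdm1 regions against distance from the start of the coding transcript in kb (x axis, reading 5' to 3' along the gene), in nB, GCB and BMPC. Points are libraries, bars are group means for C (blue) and KO (red), and the dashed and dotted lines are the starts of the coding and the long transcript. The -178 region is at 18.2 RPPM or more in nB and at 1.17 RPPM or less in BMPC, and +58 is at 39.0 RPPM or more in BMPC, in both genotypes.

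Between C nB and C BMPC, 18 of the 33 regions were called in the limma test (Benjamini-Hochberg adjusted p of at most 0.01 over all regions and at least a 2-fold difference in RPPM + 1). Coordinates of regions below are on chromosome 10. Of these calls, 11 were higher in BMPC, where 18.0% of all regions were called higher, and 7 were lower, against 20.1% of all regions. The median log2 difference of the members was 0.21, against 0.03 over all regions. All 7 regions downstream of the gene had higher means in BMPC and 6 of them were called, and all 7 regions called lower lay between -138 and -218 kb.

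The promoter region P (44177922 to 44179087) was accessible in every library. It measured 39.5, 42.6 and 51.4 RPPM in C nB, 33.4 and 29.0 RPPM in C GCB, and 66.7, 64.8 and 65.4 RPPM in C BMPC. The 3 groups did not overlap, with GCB lowest and BMPC highest. The difference of 0.56 ± 0.13 (log2, SE) between C nB and C BMPC had an adjusted p of 0.000729 but did not reach 2-fold. From C GCB to C BMPC, P rose by 1.05 ± 0.15 on the log2(RPPM + 1) scale (adjusted p = 1.25e-06), close to the 2-fold limit, and the call was lost with a pseudocount of 5 RPPM (0.97), after quantile normalization (0.77), without mitochondrial regions in the total (0.97) and without C GCB replicate 2 (0.95).

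The +58 region (44119880 to 44121233), downstream of the gene and the widest of the members, had the largest rise. It measured 1.95, 1.70 and 0.931 RPPM in C nB, 4.84 and 3.28 RPPM in C GCB, and 42.9, 44.0 and 45.2 RPPM in C BMPC. The 3 groups did not overlap, and the BMPC libraries lay far above all others. The log2 difference from C nB to C BMPC was 4.18 ± 0.27 (adjusted p = 3.68e-13), and that from C GCB to C BMPC was 3.17 ± 0.30 (adjusted p = 1.51e-09). The smaller rise from C nB to C GCB, 1.01 ± 0.30 (adjusted p = 0.00827), was at the limit of the call, and 16 alternatives lost it, among them edgeR's quasi-likelihood test (adjusted p = 0.017) and each of the 2 C GCB libraries left out.

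The -272 region (44450404 to 44451060), at the opposite end of the locus, followed the same order. It measured 1.22, 2.07 and 0.744 RPPM in C nB, 6.60 and 3.28 RPPM in C GCB, and 28.1, 21.9 and 28.0 RPPM in C BMPC, without overlap between groups. It rose by 3.56 ± 0.26 from C nB to C BMPC (adjusted p = 4.33e-12) and by 1.32 ± 0.29 from C nB to C GCB (adjusted p = 0.000581). The latter call was lost with a pseudocount of 5 RPPM (0.63) and without C GCB replicate 1 (0.91, no longer at an adjusted p of 0.01).

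Within the gene, 3 intronic or exonic regions were close to the floor before the plasma cell stage. The +14 region (44164374 to 44164714), in an intron, measured 0.487, 0.754 and 0.186 RPPM in C nB, 1.32 and 0.937 RPPM in C GCB, and 12.6, 15.5 and 15.1 RPPM in C BMPC. Its log2 difference from C nB to C BMPC was 3.40 ± 0.32 (adjusted p = 5.37e-10), and C nB and C GCB did not differ beyond the test (adjusted p = 0.227). The +18 region (44160300 to 44160685), over an exon and intron, measured 0, 0.377 and 0.744 RPPM in C nB, 1.32 and 2.34 RPPM in C GCB, and 12.4, 13.0 and 15.0 RPPM in C BMPC. The BMPC libraries stood apart from all others, and +18 rose by 3.42 ± 0.36 from C nB to C BMPC (adjusted p = 4.53e-09). The intronic +7 region (44171164 to 44171391) measured 0.244, 0 and 0.372 RPPM in C nB, 2.20 and 0 RPPM in C GCB, and 10.0, 8.21 and 9.81 RPPM in C BMPC. It rose by 3.11 ± 0.39 (adjusted p = 9.15e-08). Where nB libraries held 0 to 4 reads, these differences rest on the pseudocount of 1 RPPM and understate the change.

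Just beyond the end of the gene, the +22 region (44156351 to 44156715) measured 0.487, 1.51 and 0.372 RPPM in C nB, 0.440 and 1.87 RPPM in C GCB, and 7.93, 13.0 and 7.63 RPPM in C BMPC. C nB and C GCB overlapped and C BMPC lay above both, with a rise of 2.57 ± 0.34 from C nB (adjusted p = 3.23e-07). The +49 region (44129423 to 44130136) measured 0.244, 0.377 and 0 RPPM in C nB, 2.20 and 1.87 RPPM in C GCB, and 3.51, 6.02 and 4.05 RPPM in C BMPC. It rose by 2.18 ± 0.31 from C nB to C BMPC (adjusted p = 7.66e-07), a call that was lost with a pseudocount of 5 RPPM (0.86). Its rise from C nB to C GCB of 1.34 ± 0.34 (adjusted p = 0.00247) was lost under 5 alternatives, among them each of the 2 C GCB libraries left out.

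The distal upstream regions went the other way. The -178 region (44355868 to 44356294) measured 23.1, 18.3 and 18.2 RPPM in C nB, 3.52 and 1.41 RPPM in C GCB, and 1.17, 0.365 and 0.623 RPPM in C BMPC. The groups did not overlap, and nB stood far above the rest. It fell by 3.62 on the log2 scale from C nB to C BMPC (SE 0.30, adjusted p = 4.56e-11) and by 2.66 from C nB to C GCB (SE 0.33, adjusted p = 3.44e-07). The -180 region (44358415 to 44358847) measured 24.1, 21.5 and 21.0 RPPM in C nB, 2.20 and 2.81 RPPM in C GCB, and 5.59, 2.01 and 4.83 RPPM in C BMPC. C GCB and C BMPC overlapped, and the region fell by 2.73 to GCB (adjusted p = 5.96e-08) and fell by 2.25 to BMPC (adjusted p = 7.3e-08). The -183 region (44361414 to 44361831) measured 10.2, 13.6 and 10.6 RPPM in C nB, 1.32 and 1.87 RPPM in C GCB, and 0.910, 0.730 and 1.40 RPPM in C BMPC. C GCB and C BMPC overlapped below C nB. It fell by 2.63 from C nB to C BMPC (SE 0.34, adjusted p = 1.59e-07).

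Nearer to the gene, the -149 region (44326970 to 44327585) measured 13.9, 19.97 and 14.3 RPPM in C nB, 3.52 and 3.75 RPPM in C GCB, and 4.55, 1.46 and 3.43 RPPM in C BMPC. It fell by 2.102 from C nB to C BMPC (SE 0.28, adjusted p = 2.91e-07), with overlap between GCB and BMPC. The -138 region (44315841 to 44316177) measured 5.85, 5.28 and 7.26 RPPM in C nB, 1.32 and 0.468 RPPM in C GCB, and 0.520, 0.365 and 0.467 RPPM in C BMPC, where the libraries held 2 to 4 reads. It fell by 2.29 from C nB to C BMPC (SE 0.33, adjusted p = 9.79e-07). In the same stretch -173 and -218 were also called lower, and -141 and -172 were not (adjusted p = 0.011 and 0.21).

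**Figure D2:**
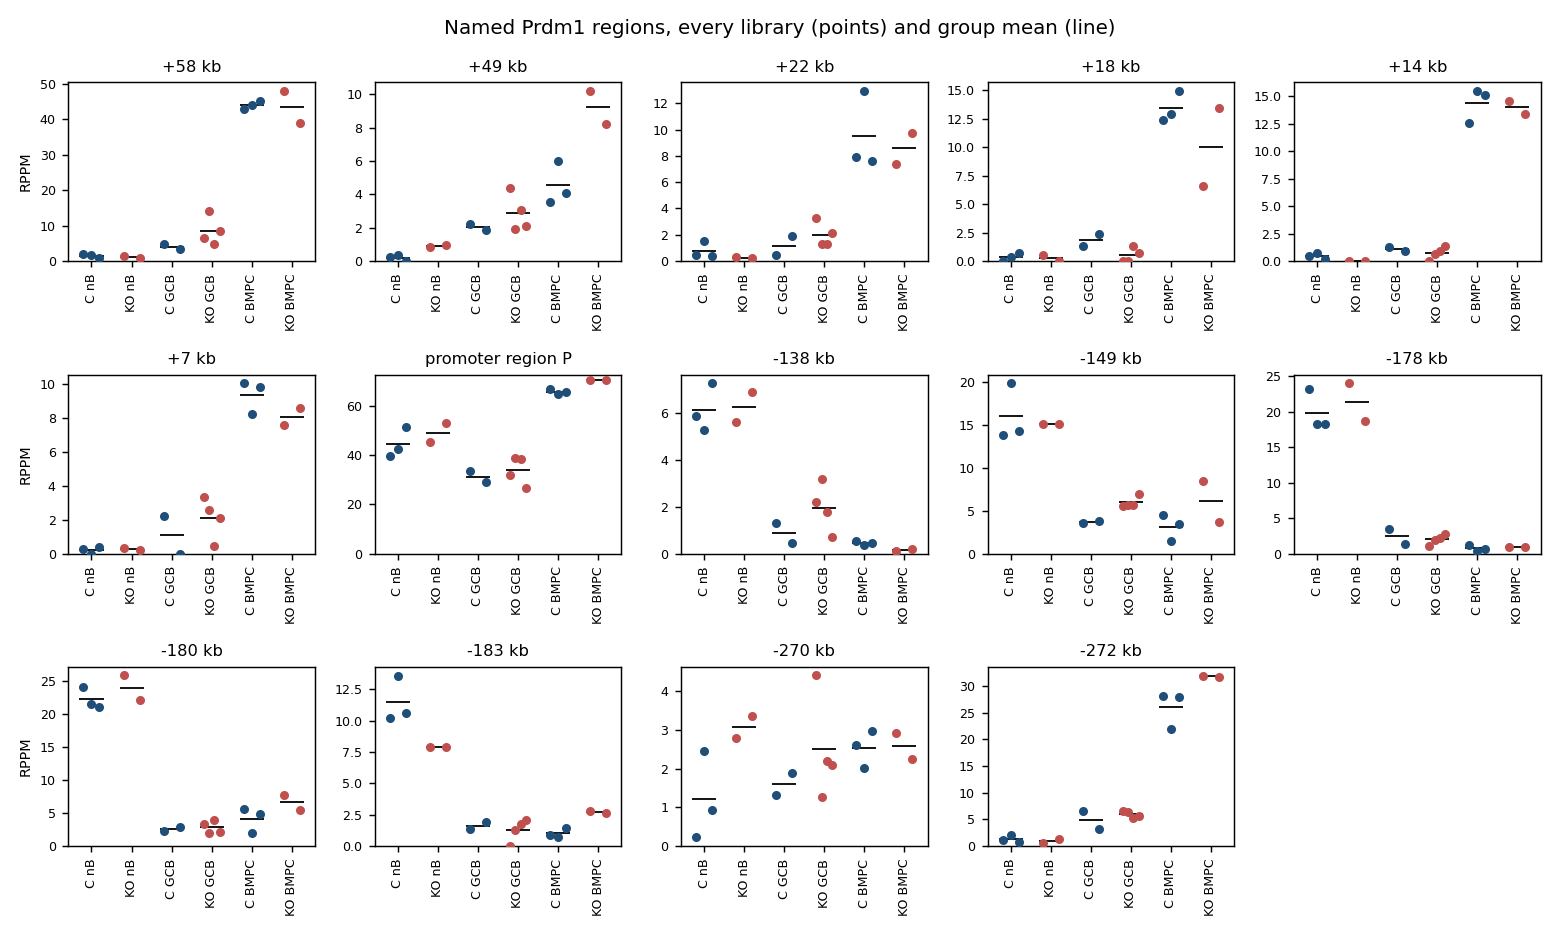
RPPM (y axis, from 0, a scale for each panel) in the 6 groups (x axis) at the 14 named Prdm1 regions. Points are libraries (C blue, KO red) and lines are group means. BMPC lie above nB at +58 to +7 and at -272, and below nB from -138 to -183, in both genotypes.

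GCB libraries were lower than nB at more members than they were higher. From C nB to C GCB, 16 regions were called, 3 higher against 14.2% of all regions and 13 lower against 8.47%. The median log2 difference was -0.60, against 0.05 over all regions. After quantile normalization the split was 1 higher and 13 lower, while over all regions it was 7418 higher and 7053 lower, against 9427 and 5602 before. Without C GCB replicate 2 the count of members fell to 10, with 1 higher and 9 lower. From C GCB to C BMPC, 12 regions were called and all 12 were higher, where 11.3% of all regions were called higher and 19.1% lower (9585 and 9871 regions after quantile normalization, against 7474 and 12636 before). The +10 region (44167772 to 44168401), named after its values were seen, measured 16.6, 17.3 and 16.01 RPPM in C nB, 4.84 and 3.28 RPPM in C GCB, and 11.6, 11.1 and 10.9 RPPM in C BMPC. It fell by 1.82 from nB to GCB (adjusted p = 1.87e-06) and rose by 1.29 from GCB to BMPC (adjusted p = 0.000125). Both differences rest on the same 2 C GCB libraries. By group means, GCB had the lowest level at 12 of the 33 regions in C and at 16 in KO, and the highest level at 1 region in each genotype.

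From KO nB to KO BMPC, 14 regions were called, with 9 higher against 18.4% of all regions and 5 lower against 16.9%. All 14 had been called in the same direction in C. From KO nB to KO GCB, 4 regions were called higher (18.4% of all regions) and 11 lower (7.84%), or 2 and 12 after quantile normalization, where all regions split into 7679 and 7477 against 12205 and 5188 before. From KO GCB to KO BMPC, 16 were called higher (12.1% of all regions) and 1, the -138 region, lower (19.9%), and all regions split into 10270 and 10345 after quantile normalization against 8013 and 13138 before. Without KO BMPC replicate 1 the 17 calls of the latter comparison fell to 11, all higher. In total 25 members (75.8%) were called in at least 1 comparison of C cell types, against 51.8% of all regions, and 24 (72.7%) in at least 1 of KO cell types, against 52.3%. Called in neither were 7 members (21.2%), against 39.8% of all regions. Called in the same direction in both genotypes were 13 members from nB to GCB (39.4%, against 17.5% of all regions), 14 from nB to BMPC (42.4%, against 30.5%) and 11 from GCB to BMPC (33.3%, against 23.6%). No member was called in opposite directions, and over all regions 0, 1 and 4 were.

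In single KO libraries, +58 measured 1.32 and 0.787 RPPM in KO nB, 6.61, 14, 4.82 and 8.39 RPPM in KO GCB, and 48.1 and 39.0 RPPM in KO BMPC. The -178 region measured 24.0 and 18.7 RPPM in KO nB, 1.101, 1.91, 2.19 and 2.80 RPPM in KO GCB, and 0.850 and 0.933 RPPM in KO BMPC. Both regions kept nB and BMPC apart in KO as in C. The +14 region had 0 reads in both KO nB libraries and measured 14.6 and 13.4 RPPM in KO BMPC. P measured 45.2 and 52.9 RPPM in KO nB, 31.9, 38.8, 38.6 and 26.6 RPPM in KO GCB, and 70.3 and 70.4 RPPM in KO BMPC, in the same order of cell types as in C.

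At the other named regions, -272 measured 0.658 and 1.38 RPPM in KO nB, 6.61, 6.37, 5.26 and 5.59 RPPM in KO GCB and 31.9 and 31.7 RPPM in KO BMPC. It was higher in both KO BMPC libraries than in any KO library of the other cell types, with a rise of 4.05 ± 0.32 from KO nB (limma, adjusted p = 4.36e-11). The +18 region measured 0.4935 and 0 RPPM in KO nB and 6.56 and 13.4 RPPM in KO BMPC, a rise of 3.10 ± 0.44. The +7 region measured 0.329 and 0.197 RPPM in KO nB and 7.53 and 8.59 RPPM in KO BMPC, a rise of 2.84 ± 0.47. The +22 region measured 0.329 and 0.197 RPPM in KO nB and 7.41 and 9.71 RPPM in KO BMPC, a rise of 2.91 ± 0.42. Nowhere among these did KO nB and KO BMPC overlap. The -180 region measured 25.8 and 22.04 RPPM in KO nB and 7.77 and 5.41 RPPM in KO BMPC and fell by 1.73 (SE 0.34). The -149 region measured 15.1 and 15.2 RPPM in KO nB and 8.50 and 3.73 RPPM in KO BMPC and fell by 1.27 (SE 0.34). At -183, with 7.90 and 7.87 RPPM in KO nB and 2.79 and 2.61 RPPM in KO BMPC, the log2 difference of -1.26 ± 0.41 was not called (adjusted p = 0.0124), although the libraries did not overlap.

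The -71 region (44248937 to 44249843), at the promoter of the long transcript, is described after its values were seen. It measured 53.1, 54.5 and 48.8 RPPM in C nB, 34.3 and 29.0 RPPM in C GCB and 32.1, 32.7 and 32.4 RPPM in C BMPC, and was not called in any comparison. The log2 differences from C nB, -0.70 ± 0.15 to C GCB and -0.67 ± 0.14 to C BMPC, did not reach 2-fold. Their adjusted p in limma was 0.000461 and 0.000129. C nB lay above C GCB and C BMPC, which overlapped.

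**Figure D3:**
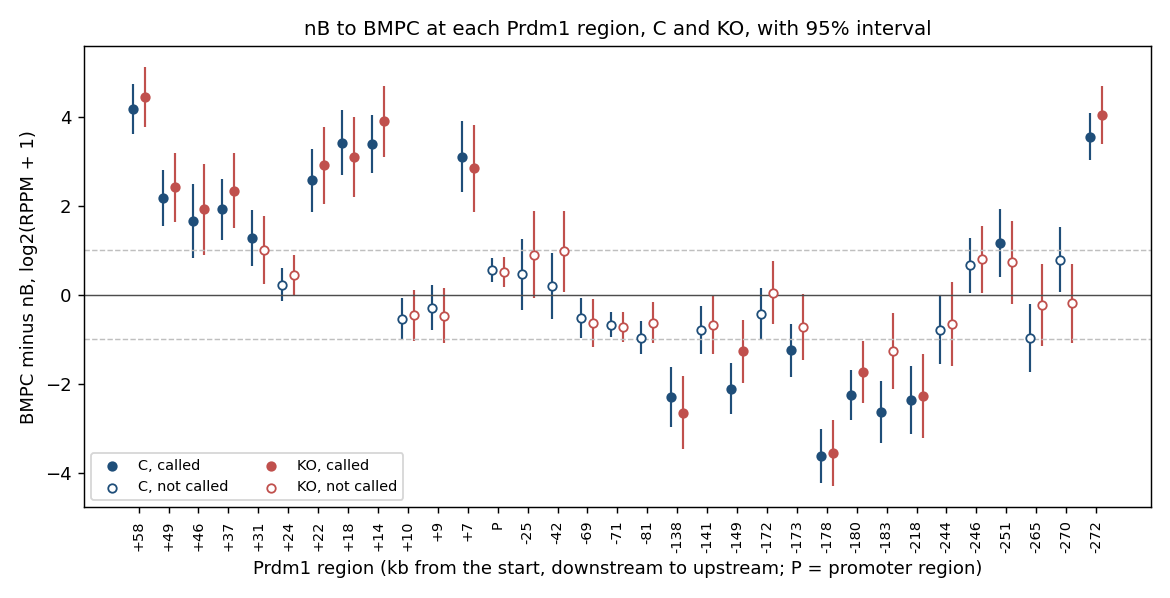
Difference between BMPC and nB on the log2(RPPM + 1) scale (y axis) at each of the 33 Prdm1 regions (x axis, downstream to upstream), for C (blue) and KO (red). Points are estimates of the limma fit, bars are 95% intervals, filled points are called and dashed lines mark 2-fold. Both genotypes are high at +58, +22 to +14, +7 and -272 and low at -138, -178, -180 and -218, and +24, +10, +9 and P lie within 2-fold.

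The largest difference between KO and C at any member was 1.01 on the log2 scale, against 4.18 between C nB and C BMPC. No member was called in nB, where 0% of all regions were called, in GCB, where 0.0317% were called, or in BMPC, where 0.104% were called. At an unadjusted p under 0.05 in limma there were 1 member in nB, 2 in GCB and 4 in BMPC, and over all regions 1107, 7801 and 6320. On the recovered reads, edgeR's quasi-likelihood test, its likelihood ratio test and DESeq2 also called 0 members in each cell type. Of all 66177 regions in BMPC, these tests called 962 higher and 239 lower, 1329 and 348, and 409 and 85, in that order. With so few called over all regions, a count of 0 among 33 members carries little information. The median difference between KO and C over the members was 0.04 in nB, 0.17 in GCB and 0.16 in BMPC on the log2 scale, against -0.01, 0.03 and 0.03 over all regions.

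The member with the smallest p in BMPC was +49, at 10.2 and 8.21 RPPM in KO against 3.51, 6.02 and 4.05 RPPM in C. The KO libraries lay above the C libraries, but the difference of 0.90 ± 0.34 (95% interval 0.20 to 1.61) had an adjusted p of 0.299. In GCB the smallest p was that of +58. Its 4 KO libraries, at 4.82 to 14 RPPM, overlapped the C libraries, at 3.28 and 4.84 RPPM, and the difference was 0.83 ± 0.29 (95% interval 0.24 to 1.42, adjusted p = 0.236). In nB the smallest p was that of -270 (44448827 to 44449114), outside genes, at 2.80 and 3.35 RPPM in KO and at 0.244, 2.45 and 0.931 RPPM in C, with a difference of 1.01 ± 0.40 (adjusted p = 1). At P the difference between KO and C was 0.14 in nB, 0.10 in GCB and 0.10 in BMPC on the log2 scale.

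In BMPC, 24 of the 33 members had a positive log2 difference between KO and C, against 54.2% of all regions, and 20 had one in edgeR and DESeq2. Summed over all 33 members, KO BMPC had 379 and 408 RPPM and C BMPC 335 to 360.5 RPPM. Of the 9 regions from -138 to -218 kb, 8 had a higher mean in KO BMPC, with a median difference of 0.42 on the log2 scale. Their summed level was 48.2 and 59.6 RPPM in KO BMPC and 25.9 to 47.0 RPPM in C BMPC. This stretch was drawn after its low values in C BMPC had been seen, so its difference between KO and C carries no test. In nB the same 9 regions summed to 130 and 134 RPPM in KO and to 126 to 132 RPPM in C. At -183, which measured 2.79 and 2.61 RPPM in KO BMPC and 0.910, 0.730 and 1.40 RPPM in C BMPC, the difference of 0.89 ± 0.38 had an adjusted p of 0.392. In nB, -183 measured 7.90 and 7.87 RPPM in KO and 10.2, 13.6 and 10.6 RPPM in C, a log2 difference of -0.48 ± 0.38. The difference of the BMPC effect at -183 from that in nB was 1.37 ± 0.53 (adjusted p = 0.749). This value is given after the values were seen, and -183 had the smallest p of the members in that test. No member was called in any of the 3 tests of whether the genotype difference differed between cell types, where 0% of all regions were called in the test of BMPC against nB, 0% in that of BMPC against GCB and 0% in that of GCB against nB. At an unadjusted p under 0.05 each of these 3 tests held 1 member of 33. Over all 66177 regions they held 3470, 5509 and 4107 in the same order.

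**Figure D4:**
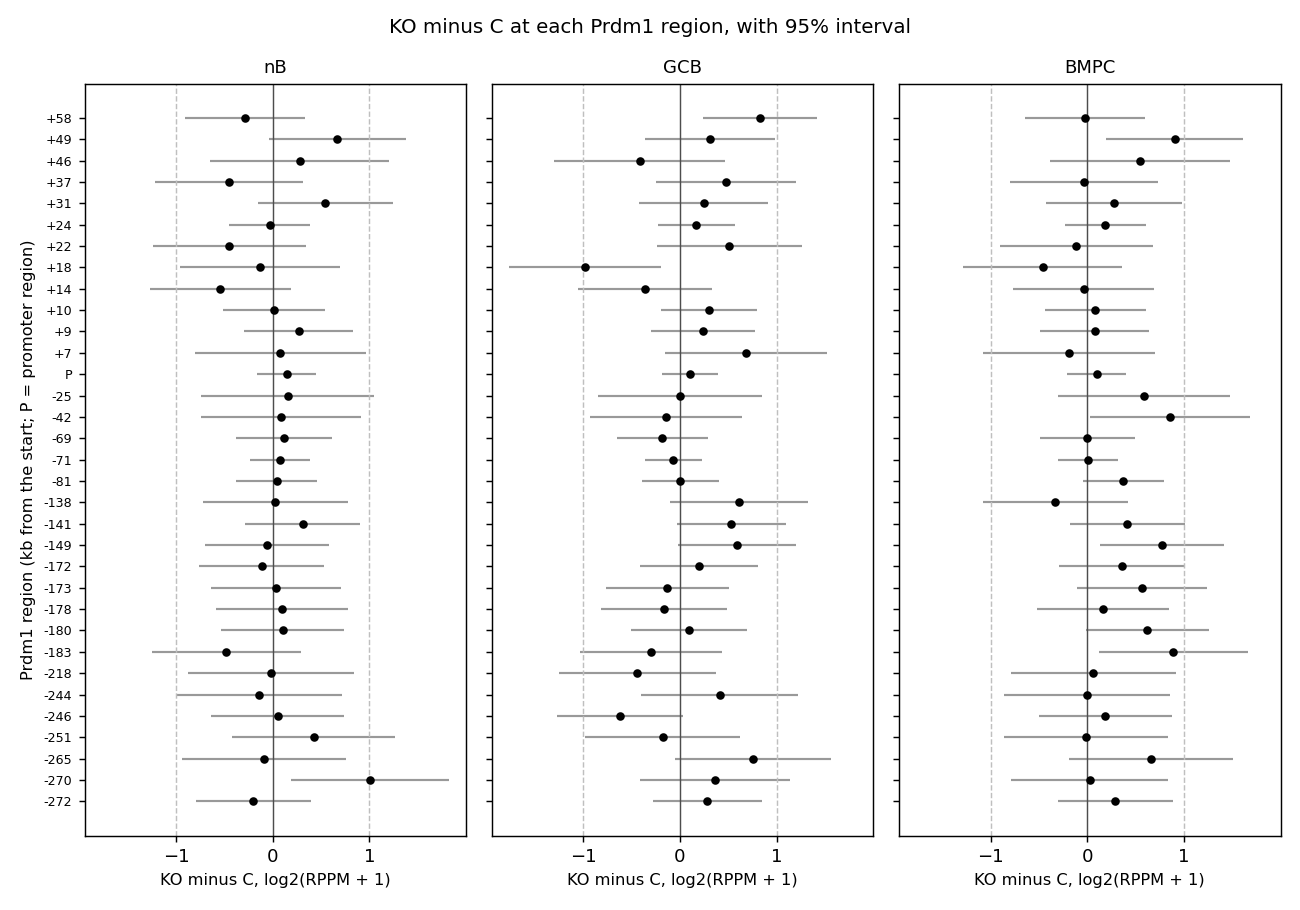
Difference between KO and C on the log2(RPPM + 1) scale (x axis) at each of the 33 Prdm1 regions (y axis) in nB, GCB and BMPC. Points are estimates of the limma fit, bars are 95% intervals and dashed lines mark 2-fold. All but 1 estimate, that of -270 in nB, lie within 2-fold, and many intervals reach beyond it.

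The genes next to Prdm1 were read within 500 kb of the outermost members, where 61 regions were annotated to other genes. From C nB to C BMPC, 20 of the 61 were called higher and 12 lower, against 18.0% and 20.1% of all regions. Atg5, which acts in autophagy, had 12 of its 21 regions called higher and 2 lower from C nB to C BMPC, and Prep, a prolyl peptidase, had 8 of 22 called higher and 8 lower. Aim1 had 0 of 11 called higher and 1 lower, and the pseudogene Speer5-ps1 had 0 of 4 called. None of the 61 neighboring regions was called between KO and C in any cell type. Over all regions 0% were called in nB, 0.0317% in GCB and 0.104% in BMPC, so a count of 0 carries little information.

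By the sum of a gene's regions over the 16 libraries, the pattern most like that of Prdm1 among 3969 genes with at least 5 regions was that of Scd3 (Pearson r = 0.993 on log2 values), followed by Kbtbd11 (0.986), Entpd1 (0.983), Hrh2 (0.983) and Vps37b (0.978). The points share the libraries, their depth and the 3 cell types. Summed over its 8 regions, Scd3 had a mean of 188 RPPM in C nB, 102 RPPM in C GCB and 207 RPPM in C BMPC.

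The genes that act on Prdm1 or under it were read as lists. Of 147 regions of 12 activators of plasma cell fate, 53 (36.1%) were called higher from C nB to C BMPC and 19 (12.9%) lower, against 18.0% and 20.1% of all regions. All 8 called regions of Ell2, an elongation factor of antibody-secreting cells, were higher, and its region nearest the start measured 0.516 ± 0.521 RPPM (SD, n = 3) in C nB and 3.52 ± 1.42 RPPM (SD, n = 3) in C BMPC. Xbp1, which drives the secretory program, and Stat3 each had 3 regions called, all higher. Their regions at the start were not called. In C nB and C BMPC the means there were 60.8 and 75.5 RPPM for Xbp1, and 109 and 93.4 RPPM for Stat3. The calls of the list were unevenly spread, and the genes that follow were named after their values were seen. Zbtb20 alone held 25 of the 53 higher calls, with 4 of its 43 regions lower. Nfkb1 had 1 region called higher and 7 lower. Irf4, the inducer of Prdm1, had 2 called higher and 3 lower, and its region at the start, at a mean of 57.4 RPPM in C nB and 44.1 RPPM in C BMPC, was not called. Of 182 regions of 8 repressors of Prdm1, 25 (13.7%) were called higher and 80 (44.0%) lower. At Bcl6, 10 regions were called, all lower, although the region at its start, at a mean of 53.8 RPPM in C nB and 30.0 RPPM in C BMPC, did not reach 2-fold. Pax5, described after its values were seen, had 14 regions called lower and 2 higher, and its region nearest the start fell by 3.44 on the log2 scale. Of 109 regions of 11 genes that Blimp-1 is known to repress, 10 (9.17%) were called higher and 56 (51.4%) lower. Bcl6, Pax5 and Spib stand in both of these lists. Ciita, the activator of MHC class II genes, had 8 regions called and Cd79a, a subunit of the B cell receptor, had 3, all lower. S1pr2, a receptor that confines germinal center B cells, had 4 regions called, all higher. Between KO and C in BMPC, 0 of the 147 activator regions were called, and 1 of the 182 and 1 of the 109 were called higher. These regions were nearest to Mitf and Cxcr5 and were named after their values were seen.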

How the data were processed

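ATAC-seq libraries of sorted cells were compared in one table of 66177 regions. Per the submitters' processing notes, Bowtie 1.1.1, Picard 1.127, MACS2 2.1.0.20140616 and edgeR 3.12.1 were used with mm9. The study's methods name other versions of Bowtie and MACS2. The deposited values are RPPM, an RPM unit that the authors scaled to the reads in peaks, over regions merged from all samples. The 54 columns of the authors' 9 own comparisons hold log2 fold changes, p-values and FDR and were not used. The members, lists and stretches were chosen with earlier results of these data known.

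A limma trend fit (limma 3.58.1, R 4.3.3) of log2(RPPM + 1) over all 66177 regions, with no filter on low values, used 6 groups and 16 libraries. Calls needed a log2 difference of 1 or more and a Benjamini-Hochberg adjusted p no higher than 0.01. Named were P, the 12 members with the smallest p from C nB to C BMPC among those called, and in each cell type the member with the smallest p between KO and C. Whole reads were recovered from RPPM for 100% of 1058832 values (tolerance 1e-06) and tested with edgeR 4.0.16 and DESeq2 1.42.0 as alternatives. Reads in regions ranged from 907959 to 8232313 per library. Other pseudocounts, scalings and filters, and each library left out, were also tried. No libraries held identical values. The labels do not say in full which libraries came from separate mice. The study's counts of mice match separate mice for the nB and BMPC libraries and pooled mice for each GCB library. The p-values rest on a spread estimated over all 6 groups and moderated over all regions. Deletion of Dnmt3a and Dnmt3b was not checked from these data. Motifs were searched in the central 300 bases of each region on NCBIM37. One part of the genotype is not reported here.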

Additional observations from a re-analysis of the deposited data

Results flagged for a closer look

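In KO GCB, the only group with 4 libraries, 1 of 34 values tested had a library far from the rest. At the -149 region, KO GCB replicate 4 measured 6.99 RPPM, where the other libraries measured 5.51, 5.73 and 5.70 RPPM. Chance flags about 1 in 20 such groups.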

How the results depend on the processing

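Of the counts of called Prdm1 regions between cell types, 179 stayed within 1.5 times the reported count across the alternatives and 7 did not. With a pseudocount of 5 RPPM the counts were 7 from C nB to C GCB, 11 from C nB to C BMPC, 7 from C GCB to C BMPC, 7 from KO nB to KO GCB and 7 from KO GCB to KO BMPC. With each library left out, the counts ranged from 10 to 16 from C nB to C GCB, from 17 to 18 from C nB to C BMPC, from 10 to 12 from C GCB to C BMPC, from 10 to 16 from KO nB to KO GCB, from 12 to 15 from KO nB to KO BMPC and from 11 to 18 from KO GCB to KO BMPC. Of these, 2 moved by over 1.5 times, without C GCB replicate 2 (10, C nB to C GCB) and without KO BMPC replicate 1 (11, KO GCB to KO BMPC). Between KO and C the count was 0 as reported and under every alternative run, which does not measure stability. Of the log2 differences of named regions that were called, 752 values kept the call and direction, 31 lost the call and 0 reversed. Of the summed levels of the locus, 39 values stayed within the SD of the group's libraries and 7 moved beyond it. Quantile normalization moved the median of all regions by -0.11 from C nB to C GCB, 0.14 from C GCB to C BMPC, -0.19 from KO nB to KO GCB and 0.12 from KO GCB to KO BMPC. Over all regions, calls between KO and C in BMPC were 60 higher and 9 lower in limma, 962 and 239 in edgeR's quasi-likelihood test, 1329 and 348 in its likelihood ratio test and 409 and 85 in DESeq2. For the pool names shared by C and KO GCB, deviations from the group means over all regions had correlations of 0.036 and 0.064. With 2 C GCB libraries these deviations mirror each other, so the correlations cannot decide whether a pool name marks a shared batch. With the replicate block, 0 members were called and +58 differed by 1.25 (limma, adjusted p = 0.69), with 1 residual degree of freedom. The cause of these changes was not tested. Depth in GCB limits values near the floor.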
